A study of Mus musculus with 2 samples.

Results

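The genes described here are 10 genes that mark mast cells, basophils and the haematopoietic progenitors they come from, measured in cultured mouse macrophages. They are Cpa3, Hdc, Mcpt8, Prss34, Kit, Fcer1a, Ms4a2, Il1rl1, Gata2 and Cd34. They were chosen by name, and all 10 are among the 15576 genes of the expression table. RNA was sequenced from bone marrow-derived macrophages (BMDMs) of wild-type mice, which are macrophages grown in culture from marrow cells. A group of cells, labelled DCA, was exposed for 24 h to 100 µM deoxycholic acid, which gut bacteria make as a secondary bile acid, and the other, labelled NC, was not exposed. There was 1 library per group. The sources used here do not give the strain, the number of animals, the growth factor of the culture or the vehicle of the NC cells, and the labels leave unclear whether cells were collected directly after the 24 h or a day later. With single libraries, the spread between cultures is unknown, and no test between the conditions was made.

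Mast cells and basophils are granulocytes that carry the high-affinity receptor for IgE. When an antigen cross-links the IgE bound to that receptor, they release histamine and granule proteases and make leukotrienes and cytokines. Both arise in the marrow from progenitors that express Kit, Cd34 and Gata2. Basophils complete their maturation there and live briefly, while mast cells mature in tissues under stem cell factor, the ligand of KIT.

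The read totals behind the values were 56.6 M in DCA and 59.2 M in NC, with M for 1e6 reads. Levels are FPKM, reads per kilobase of gene length and per 1e6 reads, as the authors deposited them. The FPKM values keep whole reads, so the reads of each gene were rebuilt and the ratio of DCA over NC was formed from them after scaling to the read totals. The 95% intervals of the ratios are exact Clopper-Pearson intervals. They cover counting error only and compare 2 libraries, not 2 conditions, and reads that are PCR copies make the true error larger. The culture carried strong macrophage expression in both libraries, with the M-CSF receptor gene Csf1r at 90.2 FPKM in DCA and 92.3 in NC.

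The members were close in the 2 libraries, with 3 exceptions on the higher side in DCA. Hdc, Ms4a2 and Mcpt8 had ratios of 1.36, 1.29 and 1.26, while the other 7 members had ratios between 0.950 and 1.13. A gene was counted as tested if its mean FPKM was at least 1, which 9 of the 10 members reached. Il1rl1, at a mean of 0.549 FPKM, did not. Of the 9 tested members, 8 were higher in DCA, where 53.5% of all 9656 tested genes were higher. The median difference in log2(FPKM + 1) was 0.07 over the 9 members and 0.01 over all tested genes; adding 1 before the logarithm makes the differences of genes with low FPKM look smaller than their ratios. None of the 9 was at least 1.5-fold apart on that scale, where 0.342% of tested genes were 1.5-fold higher and 0.155% lower. At the smaller limit of a ratio of at least 1.2, 3 of 9 members were higher, where 3.98% of the 9371 tested genes with rebuilt reads were (6.3% of the 5303 genes whose mean read number lay within the range of the members), and no member was lower by as much, where 2.03% of genes were.

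**Figure D1:**
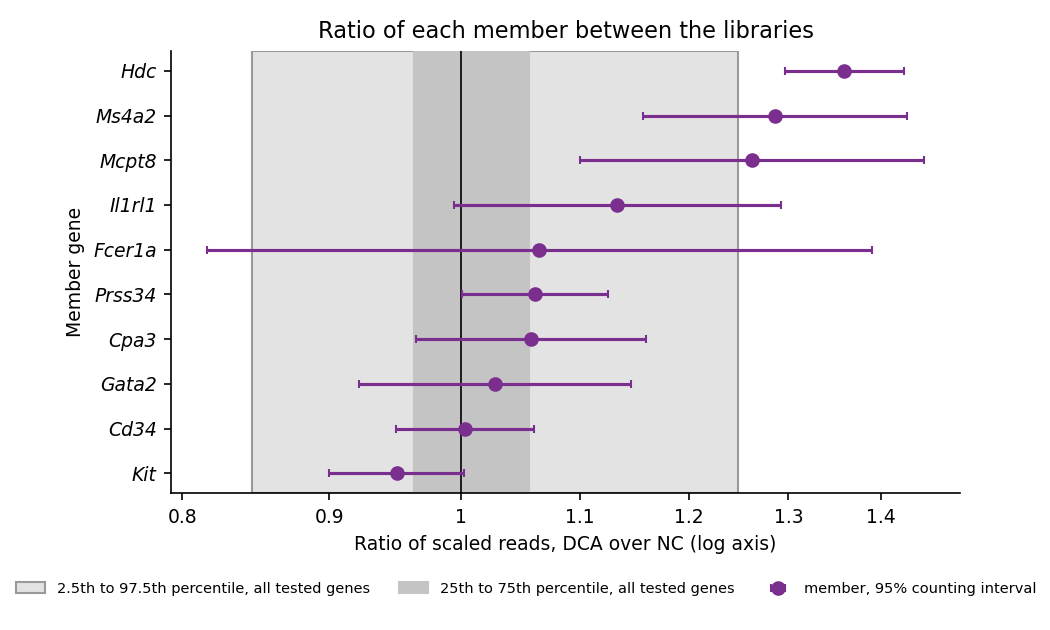
Ratio of reads scaled to the read totals, DCA over NC on a log axis, for each of the 10 members in 1 library per group, with 95% counting intervals as bars. The bands show central parts of the ratios of the tested genes, not their full span. The wide band, from 0.846 to 1.248, holds the middle 95% of them. The narrow band, from 0.963 to 1.056, runs from the lower to the upper quartile. Hdc, Ms4a2 and Mcpt8 lie to the right of the wide band, as do other tested genes. From the top, they rank 108, 181 and 214 of 9371.

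The counting interval lay above equality for 4 of the 9 tested members, Hdc, Ms4a2, Mcpt8 and, barely, Prss34. The same was true of 25.6% of tested genes, and of 24.8% of those within the same range of reads. No member had an interval below equality, where 20% of tested genes did. The intervals of the members also differed among themselves. Of the 45 pairs of members, 12 had intervals that did not overlap, and the higher gene of each such pair was Hdc (6 pairs), Ms4a2 (4 pairs) or Mcpt8 (2 pairs). Hdc, Ms4a2 and Mcpt8 thus differed from some of the other members beyond counting error. The share of such pairs among all tested genes was not computed, so the count is not read as a trait of the members.

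The name granule genes is used here for Hdc, Mcpt8, Prss34 and Cpa3, and does not say where in the cell each protein lies. Hdc had the highest ratio of the members. It encodes histidine decarboxylase, the enzyme that makes histamine, and in mice it is expressed by basophils, mast cells and immature myeloid cells including neutrophil precursors. Hdc (ENSMUSG00000027360, GRCm38 chromosome 2, 126593667 to 126619299, minus strand) stood at 8.29 FPKM with DCA (3933 reads) and at 6.10 without it (3028 reads). The ratio was 1.36 (95% interval 1.296 to 1.43), rank 108 of 9371 from the top. Genes with low read numbers scatter widely, so its depth matters for that rank. Of the 4032 other tested genes with at least as many reads on average, 3 had a ratio at least as high. These were Prg2, the major basic protein gene of eosinophils, and 2 identifiers whose exons overlap other genes, Gm38431 and the one listed as Pde2a that the annotation calls Gm45837. They were named after their values were seen. No annotated exon of another gene overlaps Hdc.

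**Figure D2:**
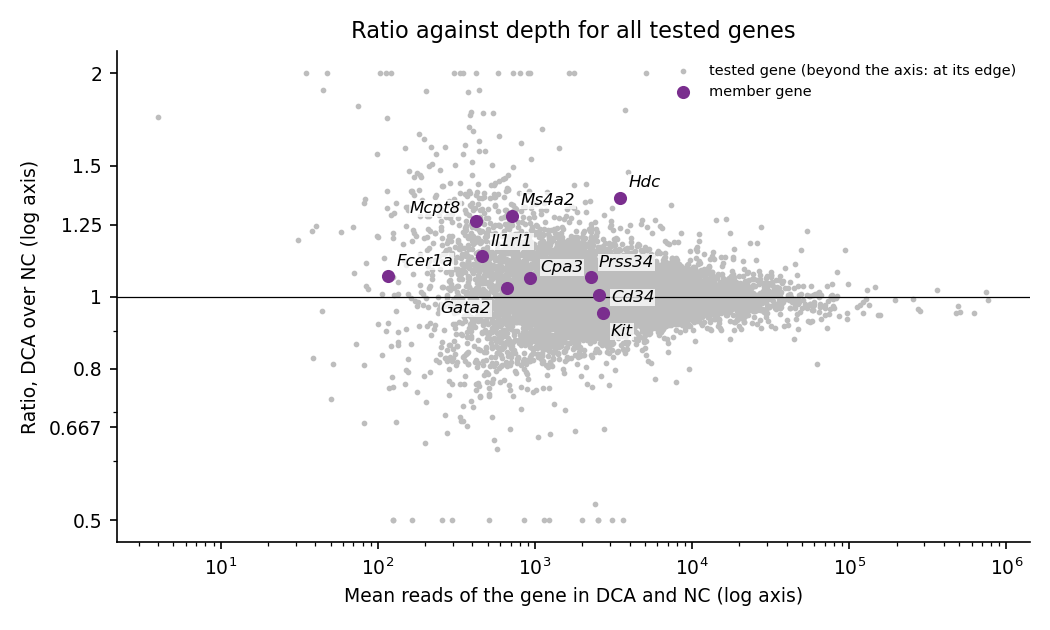
Ratio of DCA over NC against the mean number of reads in the 2 libraries, both on log axes, for the tested genes in grey and the 10 members in purple, with ratios beyond the axis drawn at its edge. The scatter narrows with depth, and Hdc, at a mean of 3480.5 reads and a ratio of 1.36, lies above nearly all genes of its depth, while Kit and Cd34, at similar depth, lie near 1.

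The basophil proteases Mcpt8 and Prss34 had unlike ratios, though with intervals that touched. Mcpt8 encodes mast cell protease 8, a granzyme-like serine protease of mouse basophils (ENSMUSG00000022157, chromosome 14, 56082166 to 56085273, minus strand). It stood at 4.59 FPKM with DCA (462 reads) and at 3.63 without it (383 reads), a ratio of 1.26 (1.10 to 1.45). Prss34 encodes a tryptase-like protease, also of mouse basophils (ENSMUSG00000056399, chromosome 17, 25298394 to 25300165, plus strand). It stood at 32.9 FPKM with DCA (2274 reads) and at 31.1 without it (2243 reads), a ratio of 1.06 (1.0005 to 1.13). The interval of Prss34 is the narrower one and its top reaches just into that of Mcpt8. Both genes belong to families of similar serine protease genes, so reads could be shared with relatives where the counting allowed it. Cpa3, carboxypeptidase A3 of mast cell and basophil granules (ENSMUSG00000001865, chromosome 3, 20215620 to 20242181, minus strand), had 8.96 and 8.47 FPKM, from 936 and 926 reads. Its ratio of 1.06 (0.965 to 1.16) includes equality, so at this depth none could be detected between the libraries.

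The 250 bases before the start sites of Hdc, Mcpt8 and Cpa3 are shown because these granule genes were read in the same libraries with unlike ratios, and because GATA2, itself among the members, binds GATA motifs in mast cell and basophil genes. The sequences are RefSeq promoter sequences of GRCm38.p6, on the strand of the gene, and capitals mark matches on either strand to AGATAA, in which the first base may also be T and the last may also be G. Positions are given as the number of bases from the first base of the match to the start site. The start sites are those of RefSeq and can differ from the gene ends given above. The Hdc window lies inside the gene as given above, and the Mcpt8 window overlaps its gene in part.
Hdc, chr2:126618679-126618928, minus strand: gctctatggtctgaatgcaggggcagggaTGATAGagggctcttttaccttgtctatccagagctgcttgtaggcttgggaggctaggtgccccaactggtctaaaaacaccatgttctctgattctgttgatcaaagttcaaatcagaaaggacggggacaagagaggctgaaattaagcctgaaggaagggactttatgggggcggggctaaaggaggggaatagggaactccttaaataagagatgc
Mcpt8, chr14:56085198-56085447, minus strand: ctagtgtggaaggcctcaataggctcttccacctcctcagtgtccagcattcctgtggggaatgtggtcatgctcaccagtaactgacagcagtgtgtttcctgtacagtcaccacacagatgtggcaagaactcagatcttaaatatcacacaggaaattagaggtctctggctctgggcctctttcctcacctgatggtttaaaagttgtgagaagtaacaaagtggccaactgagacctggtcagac
Cpa3, chr3:20242182-20242431, minus strand: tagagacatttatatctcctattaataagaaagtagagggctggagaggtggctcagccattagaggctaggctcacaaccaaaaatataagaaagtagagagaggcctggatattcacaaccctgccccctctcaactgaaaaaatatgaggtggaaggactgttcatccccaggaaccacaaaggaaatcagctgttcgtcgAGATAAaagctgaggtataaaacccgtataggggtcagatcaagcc
Hdc has 1 match, 221 bases before the start, and Cpa3 has 1 match, 46 bases before it. Mcpt8 has none in this window. Such a match occurs in 26.5% of all 32851 RefSeq promoters of this length and, with any promoter of a gene counted, in 19.6% of 7778 tested genes and in 7 of the 10 members. A match is a description of the letters and no evidence that a factor binds there.

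The receptor genes were mixed. Ms4a2 encodes the beta chain of the high-affinity IgE receptor, which amplifies its signal, and Fcer1a the alpha chain, which binds IgE. Ms4a2 (ENSMUSG00000024680, chromosome 19, 11615523 to 11623719, minus strand) stood at 2.47 FPKM with DCA (790 reads) and at 1.92 without it (643 reads). Its ratio of 1.29 (1.16 to 1.43) was reached by 49 of the 8268 other tested genes read at least as deeply. Fcer1a (ENSMUSG00000005339, chromosome 1, 173221284 to 173227214, minus strand) stood at 1.13 FPKM with DCA (117 reads) and at 1.06 without it (115 reads). Its ratio of 1.06 has an interval of 0.816 to 1.39, the widest among the members, which includes both equality and the ratio of Ms4a2. The third chain of the receptor, the gamma chain, is encoded by Fcer1g, which macrophages use for their IgG receptors as well. Fcer1g stood at 257 FPKM with DCA and at 243 without it, a ratio of 1.06 (1.04 to 1.08). The promoters of the alpha and beta chain genes, with the same motifs in capitals, are shown because these 2 chains define the receptor of mast cells and basophils.
Ms4a2, chr19:11623720-11623969, minus strand: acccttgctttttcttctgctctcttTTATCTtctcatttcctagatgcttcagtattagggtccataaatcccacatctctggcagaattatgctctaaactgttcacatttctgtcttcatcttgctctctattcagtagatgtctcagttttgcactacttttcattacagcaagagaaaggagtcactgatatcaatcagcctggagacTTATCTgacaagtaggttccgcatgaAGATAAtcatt
Fcer1a, chr1:173227230-173227479, minus strand: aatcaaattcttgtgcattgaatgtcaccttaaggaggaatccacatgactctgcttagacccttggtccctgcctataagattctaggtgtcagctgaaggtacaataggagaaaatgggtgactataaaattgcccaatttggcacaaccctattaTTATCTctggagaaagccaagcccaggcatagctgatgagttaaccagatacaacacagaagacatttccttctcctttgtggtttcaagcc
Ms4a2 has 3 matches, at 224, 37 and 11 bases before the start, and Fcer1a has 1, at 92 bases.

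Kit, the receptor for stem cell factor, was the only member lower in DCA. Kit (ENSMUSG00000005672, chromosome 5, 75574916 to 75656722, plus strand) stood at 2.39 FPKM with DCA (2560 reads) and at 2.51 without it (2821 reads). Its ratio of 0.950 (0.900 to 1.002) just includes equality. Il1rl1 encodes ST2, the receptor for interleukin 33, which mast cells, basophils and innate lymphoid cells of type 2 carry (ENSMUSG00000026069, chromosome 1, 40429570 to 40465415, plus strand). It stood at 0.583 FPKM with DCA and at 0.515 without it, under the limit for tested genes, but from 482 and 445 reads, more than Fcer1a. Its ratio of 1.13 (0.994 to 1.29) includes equality. The low FPKM of Il1rl1 comes with a gene length of 14607 bases in the FPKM, the summed length of its 5 annotated transcripts, against 6894 bases of merged exons.

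The genes shared with progenitors lay near equality. Gata2, a zinc finger transcription factor of stem and progenitor cells, mast cells and basophils (ENSMUSG00000015053, chromosome 6, 88193891 to 88207032, plus strand), stood at 1.21 FPKM with DCA (661 reads) and at 1.17 without it (673 reads). Its ratio was 1.03 (0.922 to 1.15). Cd34, a sialomucin of progenitors that is also found on mast cells and endothelium (ENSMUSG00000016494, chromosome 1, 194938819 to 194961279, plus strand), stood at 4.01 and 3.998 FPKM, from 2489 and 2596 reads. Its ratio of 1.003 (0.949 to 1.06) was the nearest to equality among the members, and its direction turned when the columns were rescaled to equal sums or to the median ratio. Exons of the antisense gene Gm16897 overlap those of Cd34, and without strand information in the counting their reads cannot be told apart. Gm16897 itself has no value in these data.

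The FPKM of different genes cannot be compared, because the summed length of all annotated transcripts, equal to the merged exon length for Prss34 and up to 2.13 times as long for Kit, stands behind each value. Per kilobase of merged exons and 1e6 reads, the scale used in this paragraph for levels, Prss34 was the highest member at 32.9 in DCA and 31.1 in NC. Cpa3 followed at 10.9 and 10.3, Hdc at 10.9 and 8.01, and Mcpt8 at 8.18 and 6.48. Below these granule genes lay Cd34 at 6.04 and 6.01, Kit at 5.08 and 5.35, Ms4a2 at 4.96 and 3.86, Gata2 at 2.16 and 2.11, Fcer1a at 2.07 and 1.95, and Il1rl1 at 1.24 and 1.09. The order was set by the mean of the 2 libraries. Of its 9 neighbouring pairs, Gata2 and Fcer1a had overlapping Poisson intervals in both libraries. Cpa3 and Hdc, and Kit and Ms4a2, overlapped in DCA only, and Mcpt8 and Cd34 in NC only. On the same scale the macrophage gene Csf1r lay at 191 in DCA and 196 in NC, and Adgre1, which encodes F4/80, at 153 and 163. Fewer cells of a type and less RNA of a gene per cell cannot be told apart in such bulk libraries.

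**Figure D3:**
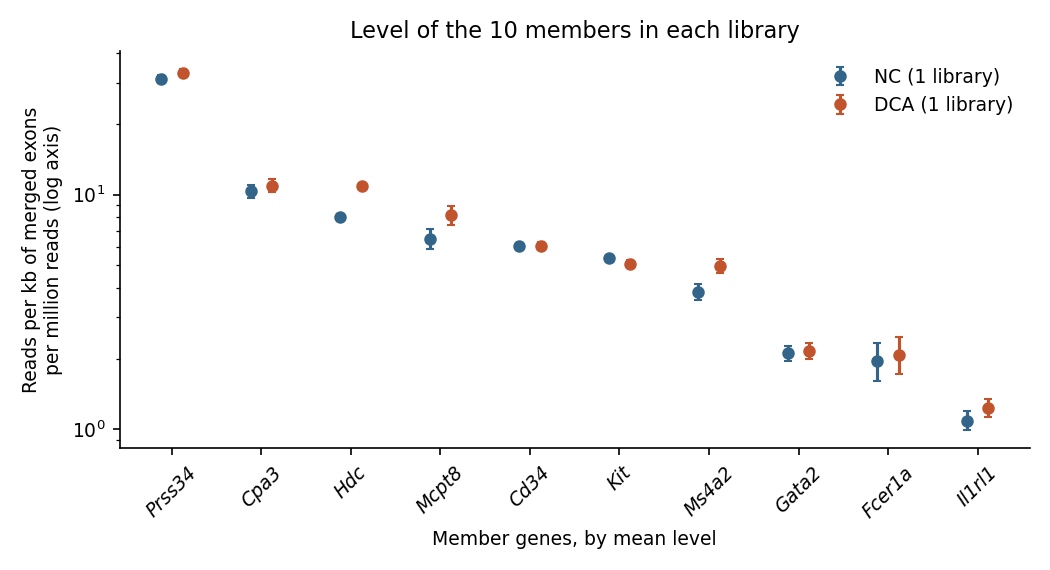
Level of each member in the NC and DCA libraries, in reads per kilobase of merged exons and 1e6 reads on a log axis, with exact 95% Poisson intervals as bars, some of them smaller than the points. Prss34 stands highest at about 32.0 on average and Il1rl1 lowest at 1.16, and the separation between the libraries is clearest for Hdc, Mcpt8 and Ms4a2.

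Summed over the 10 members, 259.9 of each 1e6 reads in DCA and 234.3 in NC fell on these genes, a ratio of 1.11 (1.08 to 1.14). Most of that difference lay in Hdc, which took 69.5 per 1e6 reads in DCA and 51.1 in NC. Without Hdc the summed ratio was 1.04 (1.01 to 1.07), and without Hdc, Ms4a2 and Mcpt8, a choice made after their values were seen, it was 1.01 (0.986 to 1.04). The 4 granule genes together had a ratio of 1.21 (1.17 to 1.25), and the 4 receptor genes 1.03 (0.983 to 1.07). Hdc supplied 3933 of the 7605 granule gene reads in DCA and 3028 of the 6580 in NC. Kit supplied 2560 of the 3949 receptor gene reads in DCA and 2821 of the 4024 in NC. The sums thus leaned on Hdc and Kit and do not stand for each gene of a group, with Prss34 at 1.06 and Ms4a2 at 1.29.

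The label of the gene set was checked against further markers. Tpsb2, a tryptase of mast cell granules, was read 0 times with DCA and 4 times without it. The chymase gene Cma1 and Mcpt4, Tpsab1 and Mrgprb2 had no value in these data under those names. Mitf, a transcription factor of mast cells, macrophages and osteoclasts, stood at 3.73 FPKM with DCA and at 3.76 without it, a ratio of 0.994 (0.949 to 1.04). Slc18a2, the vesicular transporter that loads histamine into granules, had 1.92 and 1.63 FPKM, a ratio of 1.18 (1.07 to 1.304), with exons that overlap Gm29261. The basophil marker Cd200r3 had 436 and 494 reads, a ratio of 0.924 (0.810 to 1.05), and Il4, an interleukin that basophils make, 49 and 34 reads, a ratio of 1.51 (0.954 to 2.41). Both include equality. Itga2, an integrin chain found on basophils, had 104 and 79 reads, a ratio of 1.38 (1.018 to 1.87), and all 3 genes lie under the limit for tested genes. The data thus held reads of genes shared by basophils, mast cells and progenitors and of the basophil proteases, with the mast cell tryptase Tpsb2 at or near 0.

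Markers of other cells of the marrow also differed between the libraries. Of the eosinophil markers, 5 of 5 tested genes were higher with DCA, at a median ratio of 1.36, and the reads of all 7 listed genes summed to 6705 with DCA and 4824 without it. Prg2 and Epx, the eosinophil peroxidase gene, had ratios of 1.47 (1.41 to 1.54) and 1.90 (1.65 to 2.19). Prg2 supplied 4600 and 3272 of the summed reads. Ccr3 had the lowest ratio of the tested eosinophil markers, 1.08 (0.917 to 1.28). The eosinophil genes under the limit went both ways, Siglecf at 1.78 (1.52 to 2.08) and Il5ra at 0.960 (0.760 to 1.21). Neutrophil markers were higher in 10 of 10, with a median of 1.18 and 278343 and 249283 summed reads. Tested B-cell markers were higher in 7 of 7, with a median of 1.22, and all 9 listed summed to 31127 and 26851 reads. The other listed B-cell genes lay under the limit and went both ways. Igll1 had 35 and 75 reads, a ratio of 0.488 (0.317 to 0.739), and Vpreb1 48 and 25 reads, a ratio of 2.01 (1.21 to 3.40). The azurophil granule genes Elane and Mpo, which immature neutrophils express, had ratios of 1.18 (1.13 to 1.23) and 1.18 (1.16 to 1.202). Macrophage markers were higher in 1 of 10, with a median of 0.938 and 208037 and 225812 summed reads. Tested dendritic cell markers were higher in 3 of 3, with a median of 1.245, from Flt3 at 1.05 (0.997 to 1.10) to Ccr7 at 1.68 (1.54 to 1.83). The other listed dendritic cell genes lay under the limit and went both ways, each with an interval that includes equality. Clec9a was at 1.16 (0.815 to 1.67), Zbtb46 at 0.935 (0.813 to 1.08) and Xcr1 at 0.669 (0.378 to 1.16). Tested megakaryocyte markers were higher in 0 of 2, and all listed ones summed to 3243 and 3849 reads. Pf4, a platelet chemokine gene, supplied 2610 and 3189 of these reads and was at 0.857 (0.813 to 0.902). Ppbp, the other tested gene, was at 0.955 (0.743 to 1.23), which includes equality. The sum thus leaned on Pf4 and does not stand for the list. The mast cell and basophil lists, which consist largely of the members, both had a median of 1.06. Hdc, Ms4a2 and Mcpt8 thus had ratios inside the range of the tested eosinophil and B-cell markers. The ratios of Hdc and Ms4a2 were above that of the highest neutrophil marker, Retnlg at 1.27 (1.246 to 1.301). The interval of Ms4a2 includes the ratio of Retnlg, while that of Hdc only touches the interval of Retnlg. Whether these orders exceed counting error was not tested. The other 7 members had ratios below the medians of the eosinophil, neutrophil and B-cell lists. The part of these other cells in the ratio of Hdc was not tested.

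**Figure D4:**
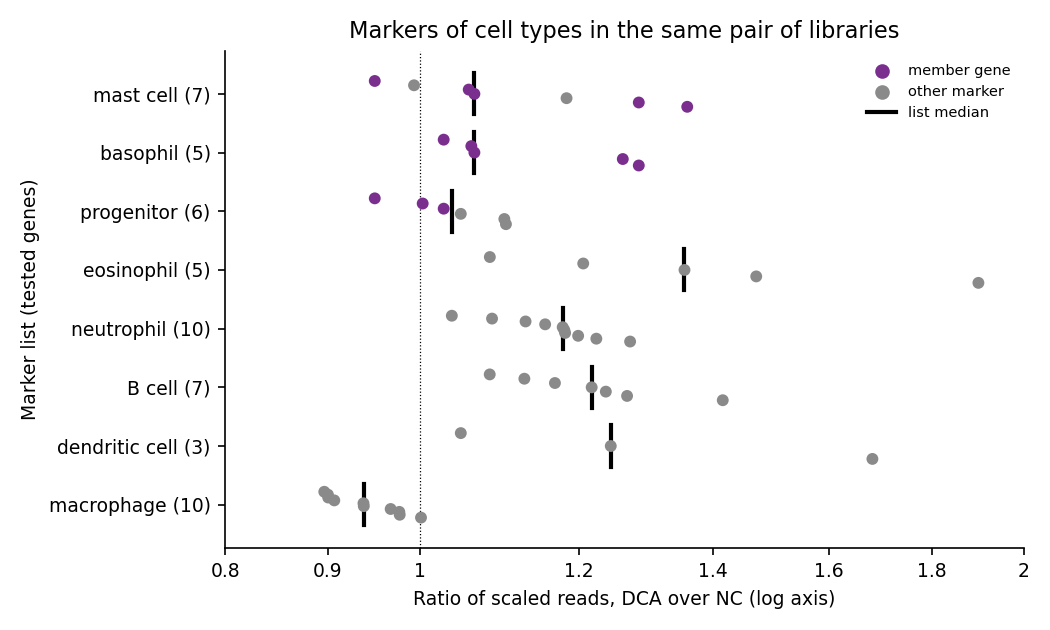
Ratio of DCA over NC on a log axis for the tested genes of 8 marker lists with at least 3 tested genes, 1 library per group, with members of the gene set in purple, other markers in grey and the median of each list as a black bar. The mast cell and basophil medians lie at 1.06, between the macrophage median of 0.938 and the medians of the eosinophil, neutrophil and B-cell lists at 1.36, 1.18 and 1.22.

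Of the progenitor markers outside the members, Myb, a transcription factor of proliferating progenitors, and Sox4 had ratios of 1.104 (1.07 to 1.14) and 1.102 (1.04 to 1.17), and both overlap another gene. Flt3, the receptor of the FLT3 ligand on lymphoid and dendritic progenitors, was at 1.05 (0.997 to 1.10). In the wider list of haematopoietic progenitor factors, 11 of 15 tested genes were higher, with a median ratio of 1.04. The highest were Zfpm1, which encodes the GATA cofactor FOG1, at 2.84 FPKM with DCA and 2.15 without it, a ratio of 1.32 (1.197 to 1.45), and Ly6a, which encodes the stem cell antigen Sca-1, at 9.23 and 7.56 FPKM, a ratio of 1.22 (1.15 to 1.295). Fli1 and Cebpa were the lowest, at 0.942 (0.910 to 0.975) and 0.917 (0.884 to 0.951). Gata1, a GATA factor of mast cells, eosinophils, erythroid cells and megakaryocytes, lay under the limit at 0.466 and 0.152 FPKM, from 79 and 27 reads, a ratio of 3.06 (1.96 to 4.93). Factors of this list thus lay on both sides of equality. Intervals lay above it for 6 of the tested genes and below it for 4, beside 25.6% and 20% of all tested genes.

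The pathways downstream of the member receptors showed no common direction. Of 16 tested genes of IgE receptor signalling, 8 were higher with DCA, at a median ratio of 0.997. The highest were the kinases Syk and Prkcd, at 1.08 (1.06 to 1.10) and 1.07 (1.05 to 1.09), and the lowest the adaptors Gab2 and Grap2, at 0.929 (0.896 to 0.963) and 0.922 (0.846 to 1.004). Macrophages use these signalling genes too, so their reads cannot be ascribed to mast cells or basophils. Of 11 tested genes of stem cell factor and KIT signalling, 4 were higher, with a median of 0.994. Stat5a, a transcription factor whose exons overlap Stat3, and the exchange factor gene Sos1 were the highest, at 1.104 (1.05 to 1.16) and 1.06 (1.015 to 1.11). The ubiquitin ligase gene Cbl and the adaptor gene Sh2b3, whose exons overlap Atxn2, were the lowest, at 0.962 (0.947 to 0.979) and 0.948 (0.922 to 0.974). Kitl, which encodes stem cell factor itself, lay under the limit at 0.342 FPKM with DCA (192 reads) and 0.485 without it (285 reads), a ratio of 0.705 (0.584 to 0.850).

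For the interleukin 33 pathway, 5 of 7 tested genes were higher, with a median ratio of 1.002. The highest were the signalling genes Traf6, a ubiquitin ligase, and Map3k7, which encodes the kinase TAK1, at 1.09 (1.045 to 1.14) and 1.03 (0.994 to 1.07). The adaptor gene Myd88, whose exons overlap Acaa1a, was at 0.967 (0.927 to 1.008). Il33 was read 7 times with DCA and 0 times without it, and Il1rap, the co-receptor that pairs with ST2, had 1.21 and 1.31 FPKM, a ratio of 0.922 (0.857 to 0.993) with exons that overlap Gm20319. For interleukin 3 and basophil growth, 3 of 6 tested genes were higher, with a median of 0.993. The interleukin 3 receptor genes Il3ra and Csf2rb were at 1.03 (0.963 to 1.098) and 0.961 (0.940 to 0.982), the second of which macrophages share for the receptor of GM-CSF. The kinase gene Jak2 and the receptor gene Il7r were at 1.012 (0.978 to 1.047) and 0.978 (0.952 to 1.004).

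In the list of histamine and eicosanoid genes outside the members, 7 of 9 tested genes were higher with DCA, beside 53.5% of all tested genes, at a median ratio of 1.07. The summed reads of the list, 58875 with DCA and 60790 without it, gave a smaller ratio of 1.01 (1.002 to 1.03). Hrh2, the histamine H2 receptor gene, stood at 1.81 FPKM with DCA and at 1.503 without it, a ratio of 1.202 (1.10 to 1.31), with exons that overlap Gm16578. Hpgds, the haematopoietic prostaglandin D synthase gene, and Ptgs2, which encodes cyclooxygenase 2, were the lowest, at 0.903 (0.882 to 0.926) and 0.817 (0.710 to 0.938). Under the limit, Ltc4s, the leukotriene C4 synthase gene, was lower with DCA at 34 and 105 reads, a ratio of 0.339 (0.223 to 0.503) with exons that overlap Gm26542, and Hrh4, the histamine H4 receptor gene, at 11 and 31 reads, a ratio of 0.371 (0.168 to 0.759). Genes of this list thus lay on both sides of equality. Among the other granule genes, 6 of 8 were higher, at a median of 1.03. Ctsg, cathepsin G of neutrophil granules and of some mast cells, had 37.4 and 30.1 FPKM, a ratio of 1.24 (1.18 to 1.305). Srgn, the serglycin core protein that holds proteases and histamine in granules of many blood cells, had 43.8 and 37.5 FPKM, a ratio of 1.17 (1.135 to 1.198). The lysosomal protease gene Ctsc, which macrophages express strongly, was at 0.990 (0.972 to 1.007).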

How the data were processed

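Per the labels' protocols, RNA of BMDMs with and without DCA was sequenced, 1 library each, and the authors deposited FPKM values for 15576 genes. The submitters' processing notes name GRCm38 as the build and, with no role or order, DESeq2 3.0, HTSeq 0.6.0, STAR 2.5.0c, bedtools 2.17.0 and Picard 1.126. Gene length, strand setting and filters were not given in the sources used here. GENCODE vM21 (GRCm38) held 15548 of the identifiers and supplied coordinates and exon overlaps, taken on either strand. The overlaps of some named genes are not given above, among them Csf1r, Mpo, Vpreb1, Clec9a, Il3ra and Csf2rb.

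Reads were rebuilt with the summed transcript length of each gene. Of 11794 genes under 5000 reads, 11371 (96.4%) came out whole within 0.05 of a read in both libraries, as did all 10 members. Genes were tested if the mean of both FPKM values reached 1, and log2(FPKM + 1) was subtracted, NC from DCA. Rebuilt reads were divided by the read totals and their ratio given a 95% counting interval. The steps were tested on simulated data, with Python 3.11.15 and scipy 1.17.1.

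Members and lists were chosen with earlier results of these data known. Eligible for naming were the members, 25 genes fixed by name, and the 2 highest and 2 lowest ratios among the tested genes of each list. Of the marker lists of other cells only some of these are named, and not every eligible gene of the other lists is reported here. Itga2, Ltc4s, Hrh4, Igll1, Vpreb1, Clec9a, Zbtb46, Xcr1, Siglecf and Il5ra were added after their values were seen. With 2 libraries, genes of similar pattern could not be sought.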

Additional observations from a re-analysis of the deposited data

How the results depend on the processing

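The median difference over the members stayed above 0 in all 8 alternatives, from 0.05 with pseudocount 5 to 0.09 with the ratio of rebuilt reads. The count of higher members was 3 of 3 with a mean FPKM of at least 5, since only Cpa3, Hdc and Prss34 pass that filter. It was 7 of 9 with either rescaling of the columns, where Cd34 turned lower, and 9 of 10 without a filter. Among all genes kept in the same settings, 53.8% were higher with a mean FPKM of at least 5 and 51.3% without a filter. That share was 47.8% with columns rescaled to equal sums and 49.99% with columns scaled by the median ratio. No member was 1.5-fold apart in any of the 8 alternatives. Hdc ranged from 0.26 to 0.44 on the log2 scale, Ms4a2 from 0.11 to 0.36 and Mcpt8 from 0.15 to 0.34, lowest with pseudocount 5. Kit was lower in DCA in all settings that kept it. Fcer1a, with 117 and 115 reads, is the member whose ratio depth limits most. No paired analysis was possible because each group has 1 library. No library could be left out for the same reason.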
